A study of Mus musculus with 5 samples.

Results

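The Bcl2 family decides at the mitochondrion whether a cell lives, and 10 of its genes were followed here in hematopoietic stem cells (HSCs) that carried or lacked Atxn1L, a paralog of the ataxia protein Ataxin-1. The genes were Bcl2, Bcl2l1 and Mcl1, which promote survival, Bax and Bak1, which permeabilize the outer mitochondrial membrane, and Bcl2l11, Bbc3, Pmaip1, Bid and Bad, which carry only the BH3 domain and promote death. A probe set of the array was taken as a member if its annotation gave exactly 1 gene and that gene was on this list. This gave 29 of the 45037 probe sets tested, for 9 of the 18193 genes that have a probe set of their own. Bax is not analysed here, as the annotation used gave it no probe set.

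RNA of sorted HSCs was measured on 5 Affymetrix mouse arrays, 3 with HSCs of wild-type (WT) mice and 2 with HSCs of Atxn1L null mice, all C57Bl/6 and 6 to 8 weeks old by the labels. The cells had no lineage markers, carried c-Kit, Sca-1 and CD150 and lay in the side population that pumps out Hoechst dye. The study calls the arrays biological replicates and states that HSCs of 8-week-old mice were pooled for each array. The labels do not say which mice stand behind each pool. A p-value here thus measures the spread between arrays of pooled cells, part of which may be technical, and not the spread between mice. The study describes mice with a null allele of Atxn1L and names no restriction to blood cells. The values are log2 expression after GCRMA (background correction, quantile normalization and a summary per probe set), and a difference is always null minus WT on this log2 scale. Since each probe set binds its target with its own strength, levels of different probe sets were not compared.

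The prosurvival proteins bind and hold the death-promoting members in check. The BH3-only proteins are set free or newly made under stress, occupy the prosurvival proteins or act on Bax and Bak1 directly, and so let cytochrome c leave the mitochondrion. In HSCs, Mcl1 is known to be needed for survival. Bcl2l11, which encodes Bim, and Bbc3, which encodes Puma, are induced when growth factors are withdrawn or DNA is damaged. The study also stained cells with Annexin V, a marker of apoptosis. Without showing the data, it reported no significant difference in apoptotic stem and progenitor cells between the genotypes, before or after treatment with fluorouracil. The arrays show how the RNA of the genes that control apoptosis stood in the same genotypes.

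Promoter windows from RefSeq on the build GRCm38.p6, from 250 bases before to 50 after an annotated start, were found for 9 of the 10 genes, 15 windows in all. They are shown for the genes whose windows hold the letters bound by FoxO factors, known activators of Bcl2l11 and Bbc3, or by Capicua, the repressor that ataxin-1 proteins bind. Each line gives the 250 bases before the start, 5′ to 3′ on the gene's strand, with the matching letters in capitals.
Bcl2l11, chr2:128125788-128126037, plus strand: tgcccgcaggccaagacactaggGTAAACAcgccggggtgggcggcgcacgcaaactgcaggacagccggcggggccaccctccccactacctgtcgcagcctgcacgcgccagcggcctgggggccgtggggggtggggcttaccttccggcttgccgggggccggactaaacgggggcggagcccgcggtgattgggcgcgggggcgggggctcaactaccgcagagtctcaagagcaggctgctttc
Bbc3, chr7:16310011-16310260, plus strand: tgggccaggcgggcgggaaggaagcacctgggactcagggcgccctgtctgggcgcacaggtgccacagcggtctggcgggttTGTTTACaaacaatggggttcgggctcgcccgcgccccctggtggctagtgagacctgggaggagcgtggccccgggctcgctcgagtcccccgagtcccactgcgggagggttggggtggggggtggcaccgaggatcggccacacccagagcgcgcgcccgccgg
Bcl2, chr1:106714291-106714540, minus strand: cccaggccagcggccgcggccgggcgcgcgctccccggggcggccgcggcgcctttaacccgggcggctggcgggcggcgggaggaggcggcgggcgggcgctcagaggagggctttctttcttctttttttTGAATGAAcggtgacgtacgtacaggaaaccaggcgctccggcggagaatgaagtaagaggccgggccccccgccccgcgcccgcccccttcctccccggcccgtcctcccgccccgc

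The FoxO letters GTAAACA, read on either strand, lie 227 bases before the Bcl2l11 start and, as the reverse complement TGTTTAC, 167 bases before 1 of the 3 Bbc3 starts. They occur in 3.65% of all 32851 windows. All spellings were searched on both strands, and overlaps between them were kept. The Capicua octamer TGAATGAA lies 118 bases before the Bcl2 start and is found in 1.3% of all windows. The related octamer TGAATGGA (1.21% of windows) and the cAMP response element TGACGTCA (1.79%) were in no member's window. Of the 9 spellings searched, the others were the E2F letters TTTGGCGC (0.514%, no member) and TTTCGCGC (0.323%, Bcl2l1), the E-box CACGTG (7.15%, Bbc3 and Bax), the GC box GGGCGG (35.7%, 10 of 15 member windows) and CCAAT (37.4%, 4 of 15). Letters in a window are a description and say nothing of whether a factor binds there.

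The genotype was visible in Atxn1l itself, whose 2 measurable probe sets read 4.98 to 6.80 in WT and 3.08 to 3.99 in null arrays. Of the genes that mark HSCs, Procr read 13.57 in WT and 13.39 in null arrays and Kit 8.26 and 8.00, while Slamf1, the gene of the sorting marker CD150, was dim at 3.92 and 3.89. Hoxa9, a homeobox gene of HSCs, read 13.39 and 13.10, and with Meis1 and Gata2 it lay lower in both null arrays than in any WT array. None of 11 measured HSC markers passed the criterion given below. Of the 11, 8 were lower in null arrays and 3 higher, namely Tal1 (0.25), Tek (0.23) and Abcg2 (0.06). Both null arrays lay below all WT arrays in the summed linear signal of these markers (25911 and 26909 against 29047 to 32272). Procr and Hoxa9, the brightest, contributed most to this sum. Of 63 measured genes that mark other cells, Cd27, a marker of progenitors, passed alone. It was dim and higher in null arrays, at 3.41 in WT and 4.02 in null arrays. The summed signal of the 10 erythroid markers was also lower in both null arrays (5148 and 5305 against 5394 to 5926). Of the 10, only Car2 and Tfrc were not dim, and they differed by -0.10 and -0.05 with overlapping genotypes. The excess of the 3′ over the 5′ signal of the Gapdh control, a measure of how far amplified RNA is shortened, ran from 5.89 to 6.02 in WT arrays and was 7.33 and 7.21 in the null arrays. The same excess of the beta-actin control ran from 6.40 to 6.71 in WT arrays and was 7.43 and 7.28 in the null arrays. The part of these differences in the results below was not tested.

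The BH3-only genes carried the only change in the family that passed the criterion. Bcl2l11, whose product Bim binds every prosurvival member, fell 1.98-fold in Atxn1L null HSCs on its brightest probe set, and Bad was lower on both of its probe sets without reaching the required fold. Bbc3, Pmaip1 and Bid read dim in both genotypes. A probe set passed if it had p of at most 0.05 in limma and a fold of at least 1.5, the study's own criterion. It was passed by 2.38% of all probe sets, 1.25% lower and 1.13% higher in null HSCs, against 1 of 29 member probe sets lower and none higher. By gene, 1 of 9 was lower and none higher, against 2.21% and 2.3% of all genes. With so few members, 1 call says little about the family.

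On the brightest probe set of Bcl2l11 (1456005_a_at), the WT arrays read 11.25, 11.25 and 11.03 and the null arrays 9.92 and 10.46. Both null arrays lay below every WT array, and the gap between the genotypes was wider than the spread within either. The mean fell from 11.18 ± 0.12 (SD, n = 3) to 10.19 ± 0.38 (SD, n = 2), a 1.98-fold decrease (log2 difference -0.99, standard error 0.20, 95% interval -1.55 to -0.43; adjusted p = 0.537 in limma over all probe sets). The call held when any single array was left out, with differences from -1.26 to -0.72. Without either null array, 1 null array remains, and the spread then comes from the WT arrays alone and is assumed to hold for the null array. No member probe set passed adjustment, and 3 of 29 had an unadjusted p of at most 0.05 against 5.59% of all probe sets. In RNA of many sorted cells, fewer cells with the transcript and less of it per cell cannot be told apart.

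The other 4 probe sets of Bcl2l11 did not show the fall. The next brightest (1435448_at) read 5.37, 5.37 and 4.64 in WT and 5.37 and 5.61 in null arrays, with the same value in 3 arrays, a difference of 0.36 in the other direction (95% interval -0.46 to 1.19). The remaining 3 were dim, with means of 2.87 to 3.64, and differed by 0.17 or less. When all 5 probe sets were averaged, the gene differed by -0.09 (adjusted p = 0.996 in limma) and was no longer called. The suffix of the probe set that fell marks it as one that reads more than 1 transcript form of the gene, and Bcl2l11 is known to be spliced into several forms. The dim probe set 1426334_a_at carries the same suffix and read 3.20 in WT and 3.21 in null arrays. Whether splicing, or the shortening of RNA that differed between the genotypes, bears on the difference between probe sets was not tested.

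Bad encodes a BH3-only protein that survival signals inactivate by phosphorylation. Its brighter probe set (1416582_a_at) read 9.79, 9.43 and 9.69 in WT and 9.07 and 9.29 in null arrays. The other (1416583_at) read 6.19, 5.92 and 6.20 in WT and 5.53 and 5.89 in null arrays. The genotypes did not overlap on either, though on the second the gap between them was only that from 5.92 to 5.89. The differences were -0.46 (standard error 0.14, 95% interval -0.87 to -0.05; adjusted p = 0.814 in limma) and -0.39 (standard error 0.16, 95% interval -0.86 to 0.07), or 1.37-fold and 1.31-fold lower, both short of the criterion. Both probe sets were measured in the same RNA of the same arrays, so they do not count as replicates.

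**Figure D1:**
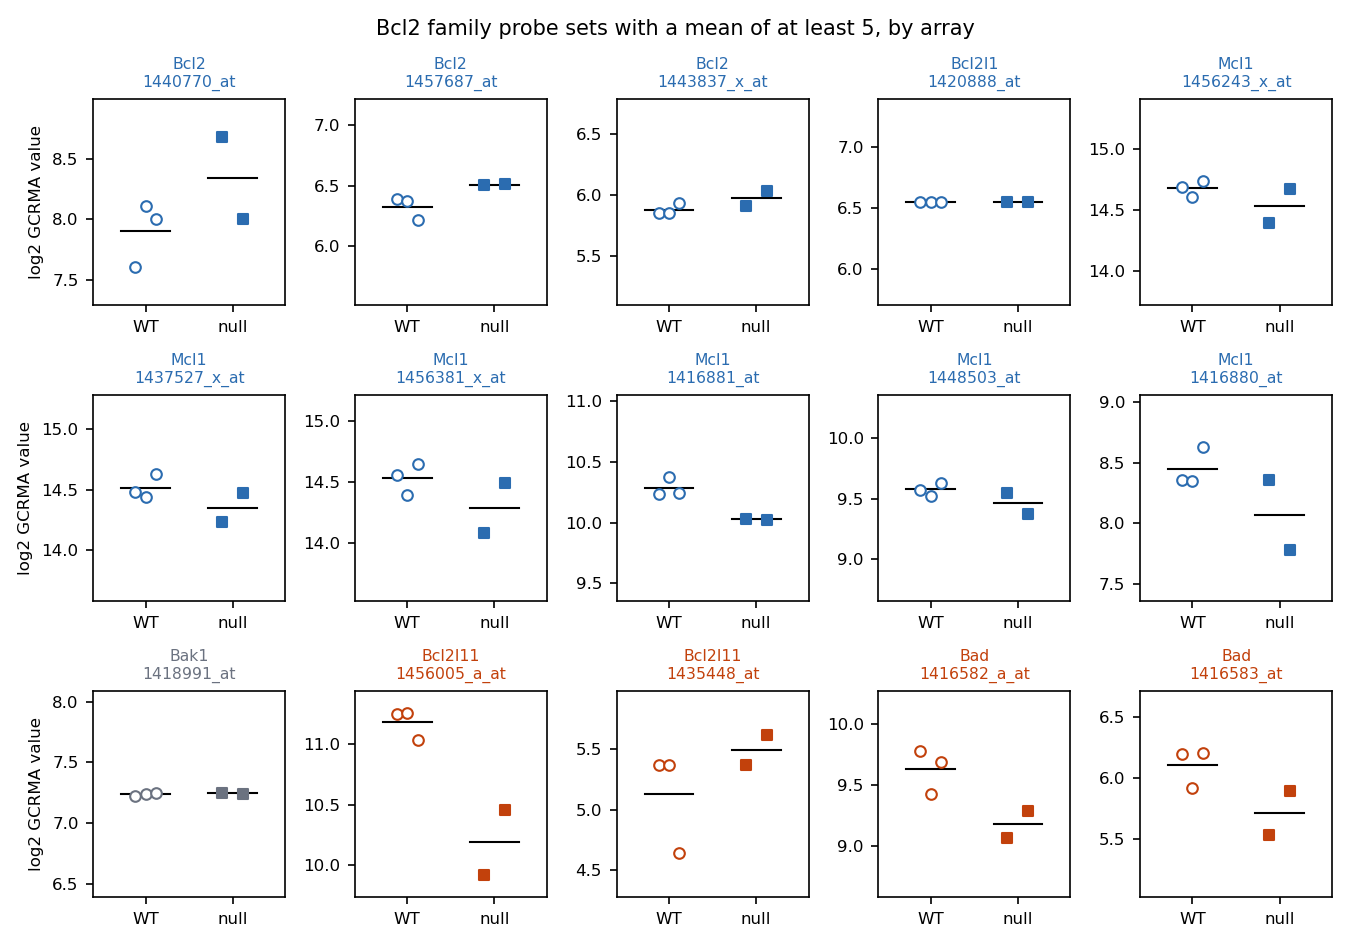
Log2 GCRMA values (vertical axis, a span of 1.7 in each panel) of the 15 Bcl2 family probe sets that were not dim (a mean of 5 or more in either genotype), open circles for the 3 WT arrays, filled squares for the 2 Atxn1L null arrays and a bar at each mean; blue marks prosurvival genes, gray Bak1 and orange BH3-only genes. The null arrays of Bcl2l11 1456005_a_at, at 9.92 and 10.46, lie below the WT arrays, and the points of Bcl2l1 lie on 1 line.

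None of the dim BH3-only genes passed. Bbc3, a target of p53, read 3.66, 3.90 and 3.70 in WT and 3.87 and 3.63 in null arrays on its only probe set, with overlapping genotypes and a 95% interval of the difference of -0.34 to 0.32. Pmaip1, which encodes Noxa, the partner that neutralizes Mcl1, read 3.19 to 3.22 over all 5 arrays. Bid, the link from death receptors to the mitochondrion, had 3 probe sets with means of 2.21 to 2.98, each within 0.02 over the arrays, and 1 of them gave the same value on all 5. Among all probe sets, 38.0% varied by less than 0.05 over the arrays, and most of these were dim. Some dim probe sets did pass as lower, but those of Bid and Pmaip1 hardly varied at all.

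Of the prosurvival genes, none passed the criterion, and they did not move together. Mcl1, whose short-lived protein HSCs need, was lower in null HSCs on all 6 of its probe sets by less than the required fold. Bcl2 was higher on its 3 brighter probe sets, again by less than the required fold. Bcl2l1, which encodes Bcl-xL, did not vary.

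On the Mcl1 probe set with the clearest separation (1416881_at), the WT arrays read 10.23, 10.38 and 10.25 and the null arrays 10.03 and 10.03. The null arrays lay below all WT arrays, by a difference of -0.26 (standard error 0.05, 95% interval -0.41 to -0.10), a 1.20-fold decrease (adjusted p = 0.578 in limma). On the brightest (1456243_x_at), the WT arrays read 14.69, 14.61 and 14.74 and the null arrays 14.39 and 14.67, so that the second null array lay among the WT arrays. The same held for the other two x_at probe sets, a suffix that warns of probes which may match other transcripts, with differences of -0.16 and -0.25. Over the 6 probe sets the differences ran from -0.38 to -0.11, and the largest of them (1416880_at) rested on the second null array, at 7.78 against 8.35 to 8.63 in WT and 8.36 in the first null array. Averaged over its probe sets, Mcl1 differed by -0.22 (standard error 0.05; adjusted p = 0.407 in limma).

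Bcl2, the founding member of the family, had its brightest signal on 1440770_at, at 7.61, 8.11 and 8.00 in WT and 8.68 and 8.00 in null arrays. The second null array lay within the WT range, and the difference of 0.44 had a 95% interval of -0.37 to 1.25. On 1457687_at the WT arrays read 6.39, 6.37 and 6.22 and both null arrays 6.51, above every WT array, with a difference of 0.18 (standard error 0.06; adjusted p = 0.894 in limma). Another (1443837_x_at) read 5.85, 5.85 and 5.94 in WT and 5.91 and 6.03 in null arrays, which overlap. The last 2 were dim, at 2.53 and 2.71 in WT arrays. Averaged over its 5 probe sets, Bcl2 differed by 0.15 (standard error 0.04; adjusted p = 0.445 in limma), a 1.11-fold difference.

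The brightest probe set of Bcl2l1 (1420888_at) read 6.55 on all 5 arrays, with the same value in every decimal deposited. The brighter of the 2 probe sets of the effector Bak1 (1418991_at) read 7.23, 7.24 and 7.25 in WT and 7.25 and 7.24 in null arrays. Among the 12936 probe sets with a mean of at least 5, only 122 (0.943%) varied by less than 0.05 over the arrays and 3 gave the same value on all 5. The Bcl2l1 and Bak1 probe sets are thus among few bright ones with nearly no spread, and whether they respond to the amount of transcript was not tested. The other 3 probe sets of Bcl2l1 and the other of Bak1 were dim, at 2.10 to 2.31 in WT arrays, with spreads under 0.05.

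**Figure D2:**
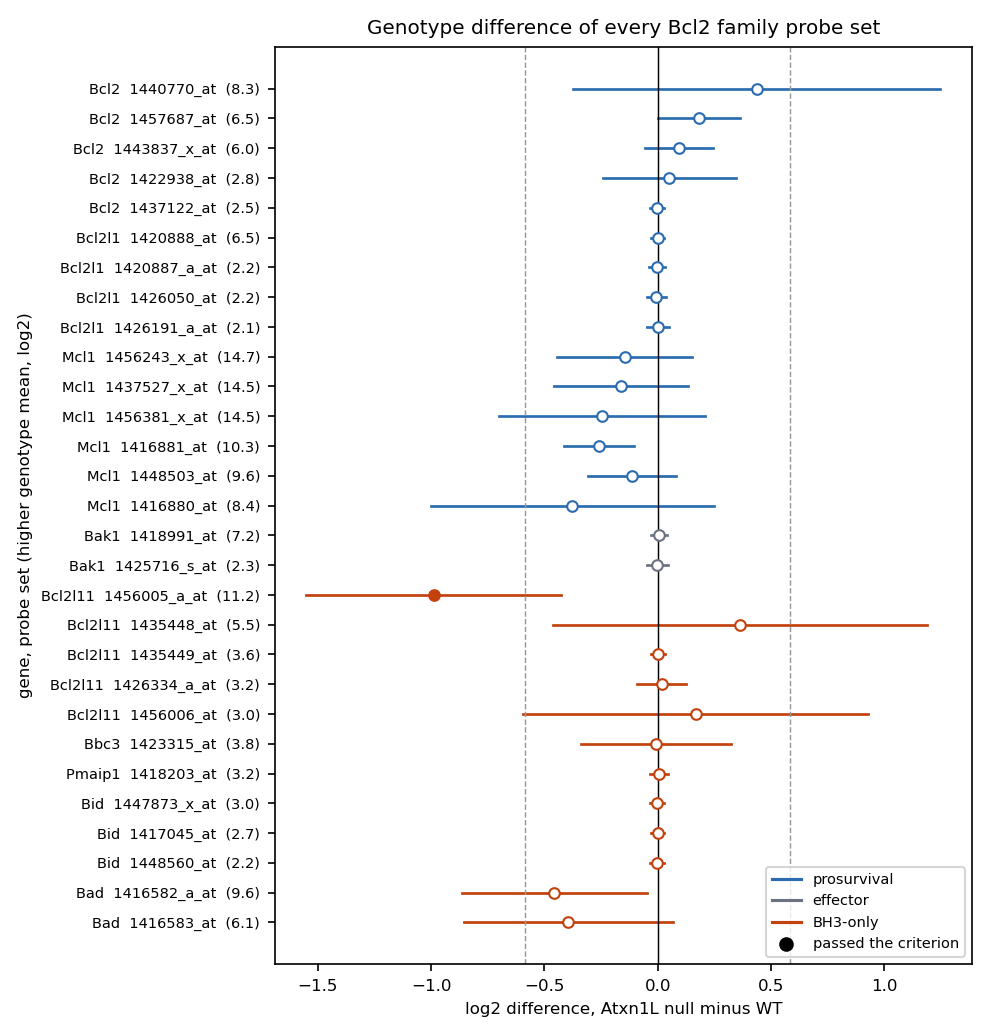
Log2 difference, Atxn1L null minus WT (horizontal axis), of all 29 Bcl2 family probe sets (vertical axis, with the higher genotype mean in parentheses); lines are 95% intervals from limma, dashed lines mark 1.5-fold and a filled point passed the criterion. Bcl2l11 1456005_a_at, at -0.99, is the only filled point.

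Across the family, 16 probe sets were lower and 11 higher in null HSCs, with a median difference of -0.002 against -0.003 over all probe sets. The medians of the prosurvival (15 probe sets) and BH3-only (12 probe sets) members were -0.003 and -0.001. Of the 29 probe sets, 14 were dim, 5 of them prosurvival and 8 BH3-only. Among the 15 with a mean of at least 5 the median was -0.15, against 0.01 over all probe sets of that level, with -0.13 for the 10 prosurvival and -0.43 for the 4 BH3-only probe sets. In these 15, both null arrays lay below all WT arrays on 4, namely 1 of Mcl1, 1 of Bcl2l11 and both of Bad, and above them on 1 of Bcl2. Over all probe sets of that level the shares were 15.8% below and 17.2% above, and over all probe sets of any level 7.5% and 6.75%.

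To weigh prosurvival against BH3-only genes, the mean over the 15 prosurvival probe sets minus that over the 12 BH3-only probe sets was taken on each array. Only the change of this balance between arrays can be read, as its level depends on probe strengths. The 3 WT arrays gave 2.59, 2.62 and 2.73, and the null arrays 2.74 and 2.70. The genotypes overlapped, with means of 2.65 ± 0.08 (SD, n = 3) and 2.72 ± 0.03 (SD, n = 2) and a difference of 0.07, less than the SD between WT arrays. The BH3-only mean went from 4.72 to 4.61. The prosurvival mean went from 7.36 to 7.33, and the lowest WT array and the highest null array both read 7.33. The direction of the prosurvival side turned with the reading, at -0.04 over all probe sets, 0.10 with the brightest probe set per gene and 0.08 without Mcl1.

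The size of the balance depended on how the probe sets were read. With each gene read by its brightest probe set, the WT arrays gave 3.44, 3.60 and 3.64 and the null arrays 4.06 and 3.83, and the null arrays lay above all WT arrays by 0.39 on average. With only probe sets of a mean of at least 5, the WT arrays gave 1.68, 1.87 and 2.03 and the null arrays 2.36 and 1.98, a difference of 0.31 with overlap. With the probe sets of each gene averaged first, the difference was 0.08, without overlap. Over all probe sets, in readings added after the values were seen, it was 0.09 without Bcl2l11, 0.19 without Mcl1 and 0.01 without Bad. In every reading the difference was positive, and without Bad it came to less than the SD of 0.10 among WT arrays. The BH3-only mean without Bad read 4.10, 4.15 and 4.01 in WT and 4.05 and 4.04 in null arrays, which overlap. Since the members were chosen with results of these arrays known, the balance was not tested.

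**Figure D3:**
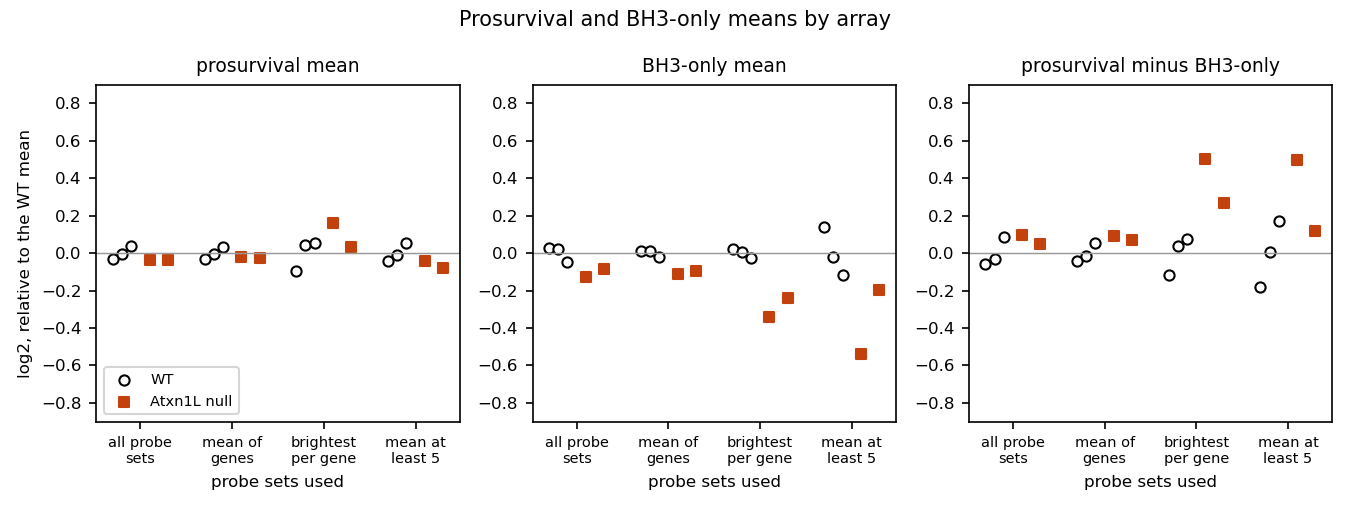
Mean log2 value of prosurvival probe sets, of BH3-only probe sets and their difference (3 panels, vertical axis relative to the WT mean), read in 4 ways (horizontal axis), open circles for WT and filled squares for Atxn1L null arrays. The BH3-only mean of both null arrays lies below the WT arrays in all 4 readings, while the difference of the prosurvival mean is -0.04 over all probe sets and 0.10 with the brightest probe set per gene.

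The other genes of the apoptosis pathway were taken from 4 lists. Of their 73 measured genes, each read by its brightest probe set, 2 were lower and none higher at the criterion, against 1.43% and 1.57% of all genes, and their median difference was -0.02. These counts are too small to set the pathway apart from all genes. Among 12 other Bcl2 family genes none passed. Becn1, an autophagy protein with a BH3 domain, read 9.04 in WT and 8.81 in null arrays, and Bnip3, which acts in mitophagy, 7.23 and 7.56. Bmf, a further BH3-only gene named here after its values were seen, read 5.66, 5.78 and 5.53 in WT and 5.22 and 5.44 in null arrays, all below WT, with a difference of -0.32 that was under the required fold (adjusted p = 0.882 in limma). Bcl2l2, a further prosurvival gene also named after its values were seen, read 5.54, 6.20 and 5.55 in WT arrays. Its null arrays read 5.53 and 5.37, all below WT, and its difference of -0.31 was under the required fold. Of the 12 genes, 9 were lower and 3 higher in null arrays.

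Among 20 genes of the apoptosome, the caspases and their inhibitors none passed on the brightest probe set. Cycs, which encodes the cytochrome c that leaves the mitochondrion, read 12.13 in WT and 12.29 in null arrays, and the channel gene Vdac1 11.56 and 11.43. Birc3 and Birc5, named after their values were seen, encode members of the inhibitor of apoptosis family. Birc3 read 5.94, 5.96 and 5.79 in WT and 6.37 and 6.38 in null arrays, a difference of 0.48 (adjusted p = 0.363 in limma). Birc5 was dim, with means of 4.47 in WT and 4.97 in null arrays, a difference of 0.50 (adjusted p = 0.625 in limma). Both were under the required fold. Apaf1, the core of the apoptosome, was dim and also named after its values were seen. It read 4.40, 4.42 and 4.38 in WT and 4.55 and 4.53 in null arrays, a difference of 0.14. Of the 20 genes, 10 were lower and 10 higher in null arrays. On dimmer probe sets, named after their values were seen, Birc6 (-0.78) and Htra2 (-0.59) passed. The Birc6 call ended without any single array but the second WT array (differences -0.96 to -0.60), and the Htra2 call without the first or last WT array or the second null array (differences -0.78 to -0.40 over the 5 omissions). The brightest probe set of Birc6 differed by -1.26 without passing, and others by 0.63 and 0.07.

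Of 14 death receptor genes, Tradd, the adaptor that carries the signal of the TNF receptor, was lower on both of its measurable probe sets. The brighter (1452622_a_at) read 7.94, 8.18 and 8.24 in WT and 7.32 and 7.24 in null arrays, 1.79-fold lower (a log2 change of -0.84 with a standard error of 0.11, adjusted p = 0.363 in limma). The other (1429117_at) read 5.70, 5.72 and 5.79 in WT and 4.62 and 4.62 in null arrays, a log2 change of -1.12 with a standard error of 0.03 (adjusted p = 0.0931 in limma). Both calls held without any single array, again with the spread of the WT arrays alone where 1 null array remained. The TNF receptor gene Tnfrsf1a read 8.52 in WT and 8.58 in null arrays and did not pass.

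Among 28 regulators of the family, Kitl, the ligand of the HSC survival receptor c-Kit, was lower on a dim probe set (4.26 to 3.41), a call that ended without any single array but the second WT array. The 2 brightest of the list, Ywhaq, a 14-3-3 protein of the kind that holds phosphorylated Bad, and Dynll1, the light chain that tethers Bim, read 13.76 and 13.75, and 13.43 and 13.39. Akt1, the kinase that phosphorylates Bad, was named after its values were seen. It read 7.49, 7.41 and 7.39 in WT and 6.86 and 6.95 in null arrays, a difference of -0.53 or 1.44-fold (adjusted p = 0.312 in limma), without overlap but under the required fold. Foxo3, a FoxO factor also named after its values were seen, read 8.79, 8.79 and 8.65 in WT and 9.32 and 8.79 in null arrays and did not pass. Single dimmer probe sets of Gsk3b (0.68), Ywhae (0.83) and Ywhaq (-0.96), named after their values were seen, passed, while the brightest of each did not. The Gsk3b call ended without the first null array, where the difference was 0.56 and so under the required fold.

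**Figure D4:**
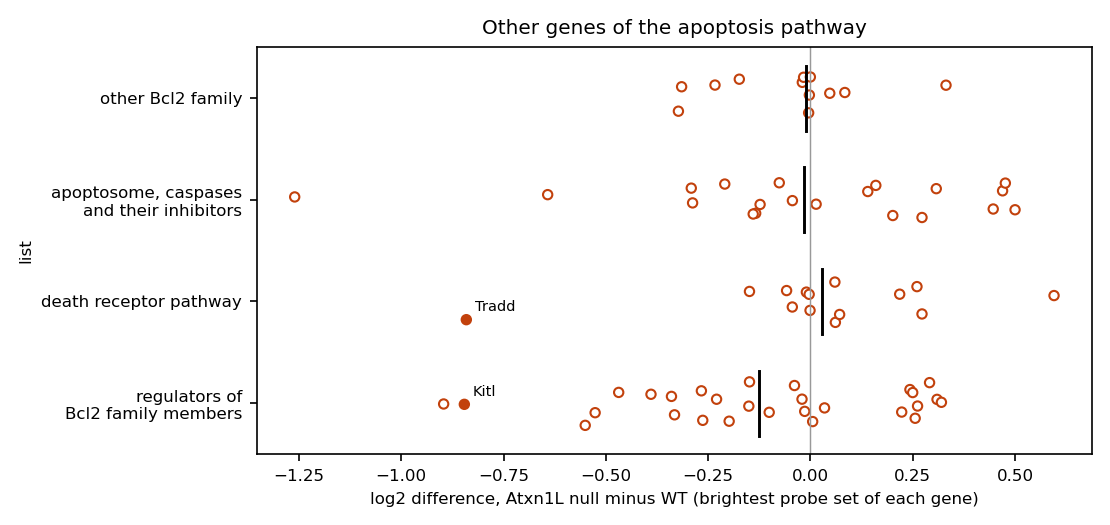
Log2 difference, Atxn1L null minus WT (horizontal axis), of each measured gene in 4 lists of apoptosis genes (vertical axis), read by its brightest probe set, with a bar at the median of each list and filled points for genes that passed the criterion. Tradd and Kitl are the 2 filled points.

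Across the 5 arrays, the genes most like the Bcl2l11 probe set that fell were 2810410L24Rik, Klhl24 and Slc39a4, with Pearson's r of 0.995, 0.991 and 0.991. They were taken from 4501 bright probe sets that varied between arrays, and 67 of these reached an r of 0.95. With 5 arrays of 2 genotypes, such values are a description of shared array profiles.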

How the data were processed

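RNA of sorted HSCs was amplified by T7-based in vitro transcription and hybridised to 5 Affymetrix arrays, 3 WT and 2 Atxn1L null. The deposited values were made by the authors with GCRMA and are on the log2 scale, read from their range since the base is not stated. No counts exist, and the number of arrays limits the precision. All 5 columns were mapped by their labels. After 64 control probe sets had been left out, limma 3.58.1 (R 4.3.3) was fitted with lmFit and eBayes to 45037 probe sets, a mean per genotype and no block, with Benjamini-Hochberg adjustment over all of them. The fit was tested on simulated data. Gene names came from the annotation of the array platform, where it gave exactly 1 gene. Intervals use the moderated t distribution with 3.77 degrees of freedom, and no exact test of 3 arrays against 2 can give a p below 0.1. A probe set is called dim if its mean is under 5 in both genotypes.

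The members, lists and tests were chosen with earlier results of these data known. Named were all members, the genes of each pathway list that passed and its 2 brightest, and Atxn1l; other pathway genes are marked in the text, and marker genes were picked from their lists with values known. The lists were written from general knowledge, and 13 of the 86 pathway genes had no probe set of their own in the annotation and are not analysed here. The alternatives were a variance trend, array weights, other scaling, a fit without dim probe sets or without those of the s_at and x_at kind, reading a gene by its brightest probe set or by their mean, 2 other thresholds, a replicate block, and each array omitted in turn.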

Additional observations from a re-analysis of the deposited data

How the results depend on the processing

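The fall of Bcl2l11 1456005_a_at kept its direction and its call under 13 of 14 alternatives (differences -1.26 to -0.72) and lost the call only under adjusted p. The threshold with no fold could not end this call. Fits without dim probe sets or without those of the s_at and x_at kind left the difference at -0.99. Averaged with the gene's other probe sets, this probe set was not called either. The directions of the 13 member probe sets with a mean of at least 5 that varied between arrays did not turn under any alternative run. Called member probe sets, and genes, numbered 1 lower and 0 higher in null HSCs. They numbered 0 when probe sets of a gene were averaged and at an adjusted p under 0.05, 3 with no fold (Bcl2l11, Bad and Mcl1), and 1 to 2 lower with 1 array left out, the second being Mcl1 1416880_at without the first null array. Over all probe sets, 564 were lower and 510 higher. These became 260 and 286 with the brightest probe set per gene and 142 and 115 with averaged probe sets, where fewer features are tested, 1 and 0 at an adjusted p under 0.05, and 1075 and 1442 with no fold. With 1 array left out they ran from 359 to 820 lower, lowest without the first WT array, and from 350 to 1128 higher, highest without the second null array. Of the pathway genes, 2 were lower and 0 higher. With array weights 1 was higher. Without dim probe sets, with averaged probe sets and with the replicate block 1 was lower, at an adjusted p under 0.05 none was, and with no fold 4 were lower and 3 higher. With 1 array left out 1 to 3 were lower and 0 to 1 higher. The Kitl call ended without the first or last WT array or either null array, which accounts for part of this. The calls on dimmer probe sets of Birc6, Htra2 and Gsk3b ended with array weights and with the replicate block, and those of Birc6 and Htra2 also with renewed quantile normalization. The balance of 0.07 became 0.31 without dim probe sets and 0.39 with the brightest probe set per gene, and ran from 0.04 to 0.12 with 1 array left out. Without dim probe sets the median difference was -0.15 for all members, -0.13 for prosurvival and -0.43 for BH3-only probe sets. With 1 array left out these medians stayed within 0.01 of 0, from -0.008 to 0 for all members, from -0.009 to -0.0002 for prosurvival and from -0.005 to 0.00008 for BH3-only probe sets. Beyond construction, the causes were not tested.

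The replicate numbers do not document a pairing, and deviations of same-numbered arrays correlated at -0.05 and -0.30. The deviations of the 2 null arrays from their mean are opposite by construction. The second WT array thus gave 0.30 with the first null array, and these values cannot decide on a pairing. With the replicate block, the Bcl2l11 call held (difference -1.06, adjusted p = 0.83 in limma), and 472 probe sets were lower and 290 higher.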

Other observations

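The Bcl2l1 probe set 1420888_at, identical on all 5 arrays at 6.55, and Bak1 1418991_at, within 0.02, stand out among bright probe sets, of which 0.943% varied by less than 0.05. Shared values were also seen in single arrays. Bcl2l11 1435448_at read 5.37 on the first and second WT arrays and the first null array, and Mcl1 1416880_at read 8.36 on the first WT array and the first null array. Foxo3 read 8.79 on the first and second WT arrays and the second null array.

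Bcl2 and Mcl1, both prosurvival, had opposite signs when their probe sets were averaged, 0.15 and -0.22, and all 6 Mcl1 probe sets were lower while 4 of 5 Bcl2 probe sets were higher in null HSCs. That Bcl2 and Mcl1 differ in their response was not tested.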
